A study of Betula luminifera with 2 samples.

Results

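miR828 and miR858 are plant microRNA (miRNA) families, and their members here were every miRBase-matched small RNA named miR828 or miR858, together with every degradome position listed for such a query. This rule found 2 of the 505 distinct small RNA sequences and 5 of the 69 distinct degradome positions listed in the authors' deposited table. All material came from Betula luminifera, a birch grown for timber, from tissue-culture seedlings of clone G49# at an age of 2 months. RNA of root, stem and leaf was pooled into 1 small RNA library and 1 degradome library, so tissues could not be compared and no value has a replicate. The small RNA table listed 607592 reads, and the degradome table held 138872 reads on 64 transcripts. A degradome read that matched more than 1 of these transcripts was counted on each. A degradome library collects the 5′ ends of uncapped polyadenylated RNA, including the 3′ fragments that slicing leaves behind.

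A plant miRNA guides an ARGONAUTE protein to a nearly complementary stretch of a transcript, which is sliced opposite bases 10 and 11 of the miRNA. In Arabidopsis, miR828 acts on TAS4, a non-coding transcript that gives rise to phased small RNAs against anthocyanin MYB genes, and on MYB transcripts directly. In several other plants it starts phased small RNAs from the MYB transcripts themselves. miR858 acts on R2R3-MYB transcripts of the phenylpropanoid and flavonoid pathways. R2R3-MYB genes encode transcription factors that control pigments, cell fate and secondary metabolism. The target transcripts here carry assembly names only, so whether they encode MYB proteins was not analysed here.

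Each family was represented by a single mature sequence. Both are given with the seed (bases 2 to 8) in capitals, because the base at which each one starts sets where its target is sliced. Each is followed by the form of the miRBase entry to which the authors matched it.
miR828: tCTTGCTCaaatgagtattcc
miR828, registry form mdm-miR828a: tCTTGCTCaaatgagtattcca
miR858: tTCGTTGTctgttcgaccttg
miR858, registry form aly-miR858-5p: tTTCGTTGtctgttcgacctt

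The miR828 sequence was 21 nt long and lacked the last base of its registry form of 22 nt. The miR858 sequence was 21 nt long, as was its registry form, but started 1 base later and ended 1 base later, so its seed was shifted. Neither seed occurred in any other of the 505 listed sequences. The longest stretch that miR828 shared with another listed sequence was 9 nt, and for miR858 it was 8 nt. The longest stretch they shared with each other was 4 nt. A variant with 1 substituted base would share at least 10 nt, so none was listed under another name.

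The 5 listed target sites follow, 5′ to 3′ along the transcript. Capitals mark bases that form no Watson-Crick pair with the miRNA, so that the strength of pairing can be set beside the reads below.
miR828 site of Unigene24455, positions 44 to 64: ggaauacCcauuugaAcaaga
miR828 site of Unigene4867, positions 522 to 542: ggaaCacucauuugagcaaga
miR858 site of Unigene12428, positions 353 to 372: caGggcgaacagacaaUgaa
miR858 site of Unigene15020, positions 58 to 77: cGGggAgaacagacaaUgaa
miR858 site of Unigene8535, positions 613 to 632: caGggcgUacagacaacgaG

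In all 5 sites the listed cleavage position faced base 10 of the miRNA, which is the 12th base of the miR828 sites and the 11th base of the miR858 sites as printed. The bases facing miRNA bases 9 to 11 formed Watson-Crick pairs in every site. The miR828 site of Unigene4867 had 20 Watson-Crick pairs and a single mismatch, at miRNA base 17. That of Unigene24455 had 19 pairs and mismatches at bases 6 and 14, the first of them inside the seed. All 3 miR858 sites left miRNA base 16 without a partner and had a wobble (G:U) pair at base 19. Unigene12428 had 18 Watson-Crick pairs, a further wobble at base 4 and no mismatch. Unigene8535 had 17 pairs, with a mismatch at base 13 and a wobble at base 1. Unigene15020 had 16, with a mismatch at base 15 and wobbles at bases 4 and 20. The authors listed these sites by their complementarity, so good pairing is part of how they were chosen. The miR828 sites matched each other at 18 of 21 bases. The miR858 sites matched each other at 15 to 18 of 20 bases, with Unigene12428 and Unigene15020 the closest pair.

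The mature miRNAs differed in abundance, with miR858 above most listed families and miR828 at the bottom of the list. miR858 had 124 reads, 0.0204% of the listed reads (exact binomial interval at 95%, 0.0170 to 0.0243%), and ranked 25 among 84 matched families. Its neighbours in that order were miR160 with 134 reads and miR159, which targets GAMYB-type MYB genes, with 123.5. Their exact Poisson intervals (112 to 159 for miR160 and 103 to 147 for miR159) overlapped that of miR858 (103 to 148), so these 3 families could not be ordered at this depth. miR828 had 1 read (Poisson interval 0.0253 to 5.57), a value shared by 26 families, with no family below it. The median family had 9 reads. Intervals here cover the counting error of reads only. PCR copies of a molecule were counted as separate reads, and 1 library gives no spread between samples. In this pool of organs, fewer cells with a miRNA and less of it per cell cannot be told apart.

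Neither sequence was placed on a contig, so the listed hairpins are those of the registry species. Both mature sequences lay on the 5′ arm. The miR828 hairpin was 158 nt long with 38.6% GC and a folding energy index of 1.2. The miR858 hairpin was 938 nt long with 32.9% GC and an index of 0.8. No further sequence was listed under either family name.

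On the targets, by contrast, the deepest positions of these families were among the deepest of the 69 listed positions. The miR828 position of Unigene24455, position 55, had 1819 of the 2647 reads on its transcript. That is 68.7% (66.9 to 70.5%), the most reads of any listed position and the eighth highest share. The miR858 position of Unigene12428, position 363, had 1631 of 4398 reads, or 37.1% (35.7 to 38.5%), and was the third deepest. The only position between them was that of miR408, with 1717 reads. Together the 5 positions held 3494 of the 7628 reads at all listed positions (45.8%), and the 2 deepest held 45.2%.

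**Figure D1:**
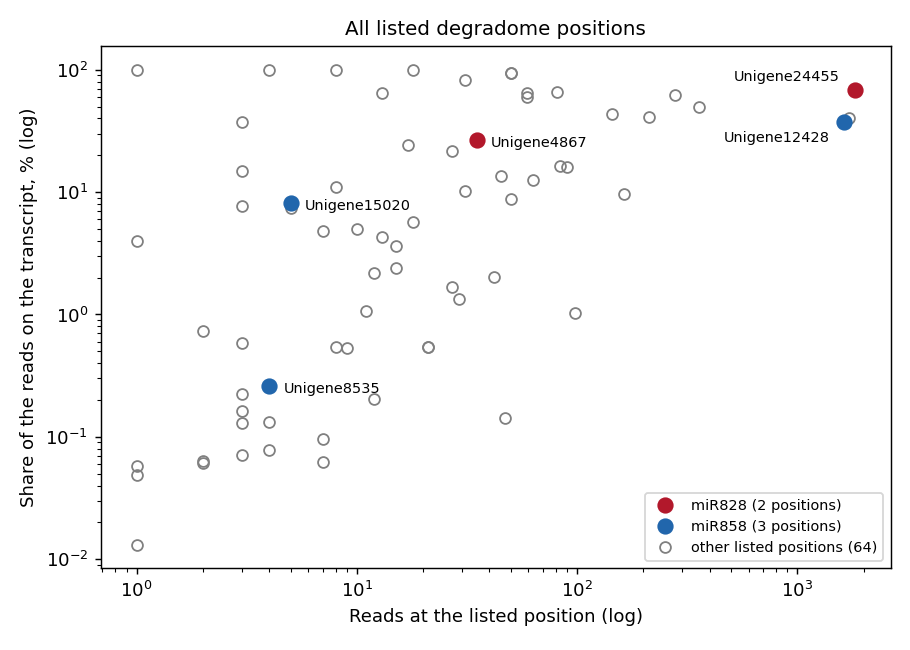
Reads at each of the 69 listed positions (x axis, log scale) against the share these make up of all reads on the transcript (y axis, percent, log scale). Red points are the miR828 positions, blue points the miR858 positions and open grey circles the other 64. Unigene24455 and Unigene12428 lie at the right edge with 1819 and 1631 reads, while Unigene15020 and Unigene8535 lie at 5 and 4 reads.

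The other miR828 target, Unigene4867, had 35 of its 131 reads at position 533, or 26.7% (19.4 to 35.2%). This was the highest position of that transcript, 2.5 times the next one, which had 14 reads at 430 nt upstream. On Unigene24455 the listed position had 11.2 times the reads of the next, and on Unigene12428 22.3 times. The better paired miR828 site was thus the shallower one, although reads also depend on the amount of transcript, which was not measured. In the authors' deposited table Unigene4867 had the lower alignment score, 1 against 3 for Unigene24455, so the site with fewer mismatches had the lower score. All reads at these miR828 positions matched 1 place alone. Of the 1631 reads on Unigene12428, 1623 did so.

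The remaining miR858 targets had little signal. Unigene15020 had 5 of 61 reads at position 68 (8.20%, 2.72 to 18.1%), and 4 of its 7 positions with reads were higher. Its highest position, 35 nt downstream, had 15 reads. Unigene8535 had 4 of 1540 reads at position 623 (0.260%, 0.0708 to 0.664%), which ranked 105 among its 148 positions with reads. Its highest position was 603 nt upstream with 369 reads. At these depths the listed positions of both transcripts cannot be told from the reads around them.

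The authors' deposited table assigned category 0 to the 3 positions on Unigene24455, Unigene4867 and Unigene12428, with p-values of 0.00417, 0.00601 and 0.00924. It assigned category 3 and a p-value of 0.209 to each of the positions on Unigene15020 and Unigene8535. Over all 69 listed positions the share of category 0 was 33.3%, so 3 of 5 is too small a number to set the families apart. The same 3 of 5 positions held the most reads of their transcript, against a background of 39.1% over all listed positions. Every listed position of category 0 did so, so this is not a separate observation. The median share at the listed position was 26.7% over the 5 positions of miR828 and miR858 and 4.93% over the other 64. The median number of reads was 35 for miR828 and miR858 and 13 for the others. Among those others, the 10 positions of miR393 and miR482 had medians of 45.7% and 54.5 reads. Some of these 10 lie on contigs of the same cluster with equal reads at the listed position, so they may not all be separate. The 6 positions of miR159 and miR319 had medians of 37.9% and 43 reads. Medians this high were thus not particular to miR828 and miR858. With 5 positions in 1 library these are descriptions, and no test was made.

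**Figure D2:**
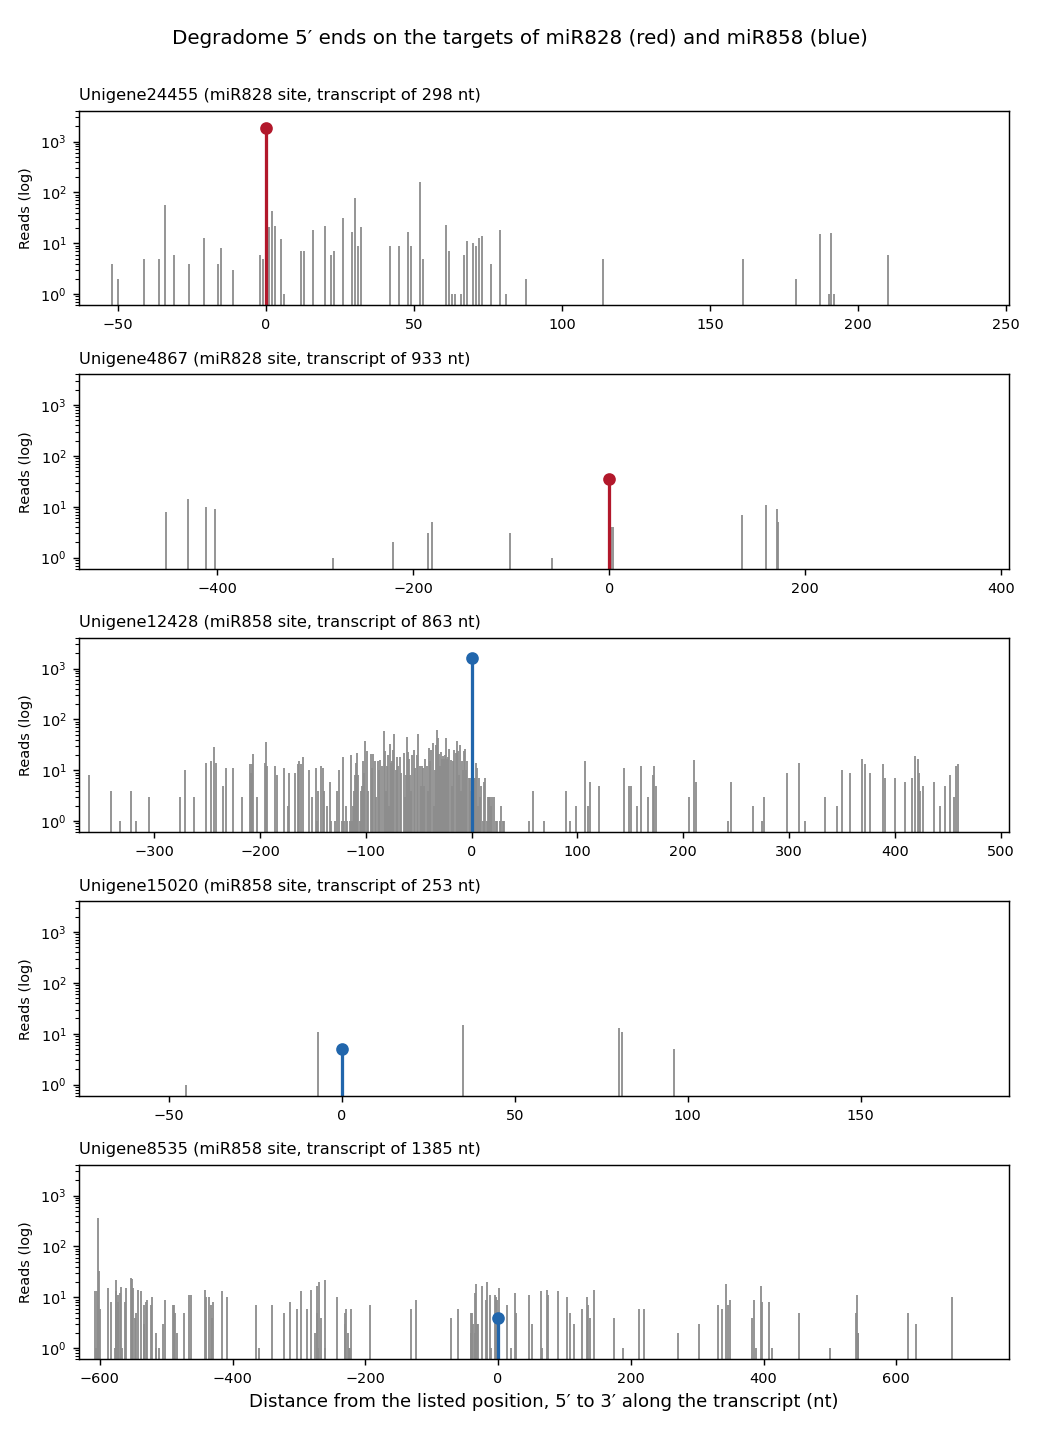
Degradome reads (y axis, log scale) at each position of the 5 target transcripts, by distance in nt from the listed position (x axis), with the listed position in red for miR828 and in blue for miR858. The listed position is far above the rest on Unigene24455 and Unigene12428, is the highest of few on Unigene4867, and does not stand out on Unigene15020 or Unigene8535.

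The deepest miR858 signal faced base 10 of the sequenced form of the miRNA, the form whose alignment the authors listed. Base 10 of the registry form, which starts 1 base earlier, would face the next position downstream. On Unigene12428 there were 1631 reads at the listed position 363 and 73 at position 364, so that 95.7% of the reads at these 2 positions (94.6 to 96.6%) lay at the listed one. Position 362, 1 nt upstream, had 4 reads. On Unigene15020 there were 5 reads at the listed position and none 1 nt downstream. On Unigene8535 the order was turned, with 4 reads at the listed position and 15 at the next (21.1% at the listed one, 6.05 to 45.6%). For miR828 both forms start at the same base, so the 3′ base they differ by does not move the expected position.

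Reads around the listed position were spread differently on the 2 deep targets. On Unigene12428 they lay mostly upstream, with 1603 reads in the 100 nt before position 363 and 181 reads in the 100 nt after it. In the last 50 nt before it, 47 positions had reads, 869 reads in all. In the first 50 nt after it, 25 positions had 168 reads, and from 51 to 100 nt after it only 6 positions had 13 reads. On Unigene24455 they lay mostly downstream. The 54 nt before position 55 had 122 reads, and the 100 nt after it had 655 reads. Only 54 nt of this transcript of 298 nt lie upstream of the position, so the upstream side was less fully seen. Counted per nt over the whole transcript, Unigene12428 had 6.15 reads upstream and 1.08 downstream, while Unigene24455 had 2.26 upstream and 2.91 downstream.

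Some upstream reads of Unigene12428 were not its own alone. Reads matching more than 1 place made up 645 of its 4398 reads (14.7%), at 59 positions from 87 to 363. Of these positions 58 lay upstream of the listed position, 1 was that position itself, and none lay downstream. The reads alone do not say which contig they came from. The share at position 363 depended on how they were counted. It was 39.9% with reads divided by their matches and 43.2% among reads that match 1 place alone. Both lie above the interval of 35.7 to 38.5% given for all reads. On Unigene4867, 12 of 131 reads matched more than 1 place, all upstream. On the other 3 transcripts every read matched 1 place alone.

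**Figure D3:**
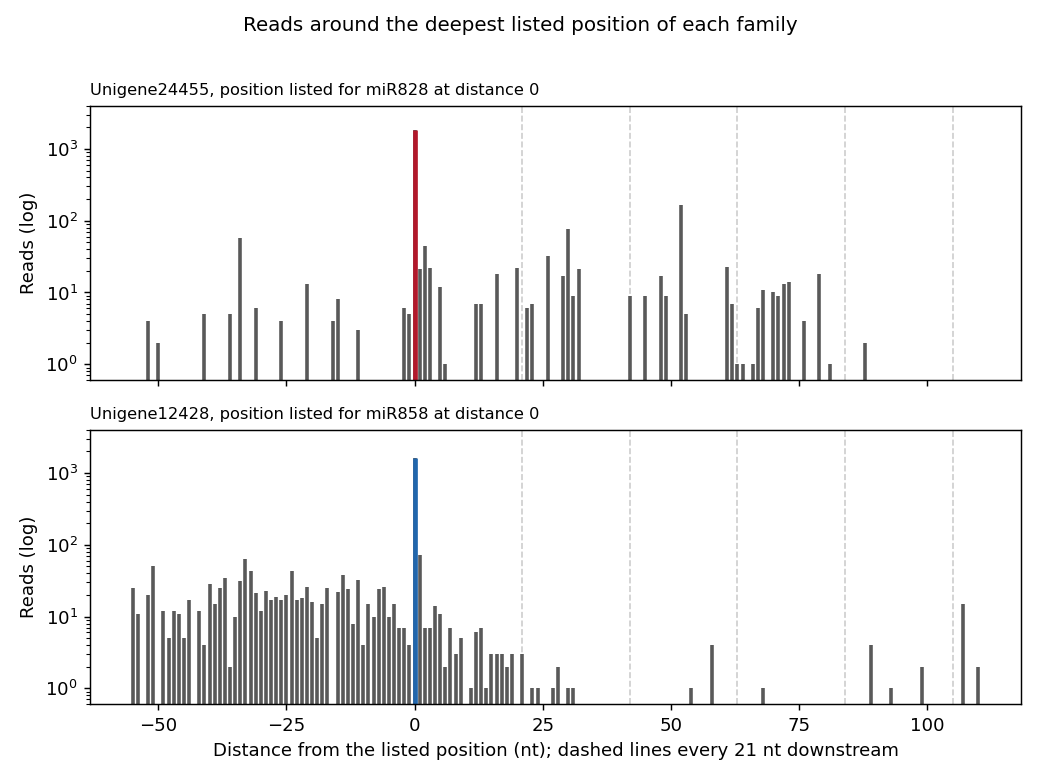
Degradome reads (y axis, log scale) from 55 nt upstream to 110 nt downstream of the deepest listed position of each family (x axis, nt), with dashed lines at every 21 nt downstream. On Unigene24455 the next highest position, with 163 reads, lies 52 nt downstream and between dashed lines. On Unigene12428 reads are dense before the listed position and sparse after it.

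Because miR828 is known in other plants to start phased small RNAs, which are made from the cleaved end in steps of 21 nt, the spacing of reads downstream of each listed position was examined. Distances were sorted into 21 registers by their remainder after division by 21, register 0 being that of the listed position. An even spread over the registers would put 4.76% of the reads in each. The listed position itself was left out, so register 0 is first reached 21 nt downstream. Reads nearer than that can fall only in the other registers, and so lower the share of register 0 by construction. Phased small RNAs themselves were not measured here, and a degradome read marks an end of a polyadenylated transcript.

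By reads, register 0 held less than the even share on each of the 5 transcripts, as it did at 78.3% of the 60 listed positions of any family with reads downstream, so this does not set the 5 apart. On Unigene24455 it had 16 of 706 downstream reads (2.27%, 1.30 to 3.65%), at 3 positions, and 13 of the other registers had more. The register with the most reads was register 10, with 186 reads (26.3%, 23.1 to 29.8%), of which 163 lay at a single position 52 nt downstream. The next highest downstream position, with 76 reads, lay 30 nt downstream, 22 nt from the position with 163. Among the 20 downstream positions with at least 10 reads there were 190 pairs, of which 2 lay 21 nt apart, 3 lay 22 nt apart and 3 lay 20 nt apart. Pairs 21 nt apart were thus no more frequent than those 20 or 22 nt apart. On Unigene4867 0 of 40 downstream reads fell in register 0, which allows a share of up to 7.50%, above the even share.

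The miR858 targets were alike in this. On Unigene12428 register 0 had 20 of 540 downstream reads (3.70%, 2.28 to 5.66%), and the highest was register 1 with 90 reads, 73 of them at the position next to the listed one. On Unigene8535 register 0 had 1 of 326 reads (0.307%, 0.00777 to 1.70%), the lowest of all 21 registers. On Unigene15020 it was 0 of 44 reads, which allows a share of up to 6.82%. The 3 transcripts with over 100 downstream reads thus had 0.307 to 3.70% in register 0. At that depth 74.4% of the 39 listed positions, these 3 included, were under the even share. The side of the even share depended on the counting. Unigene12428 had 6.53% within the first 10 spacings, and Unigene24455 had 6.67% when distinct positions were counted in place of reads. With 1 nt on either side included, where the even share is 14.3%, Unigene12428 had 24.4%, Unigene8535 15.0% and Unigene24455 10.5%. These values include the reads 1 nt downstream of the listed position itself, which were 73, 15 and 21 in that order.

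**Figure D4:**
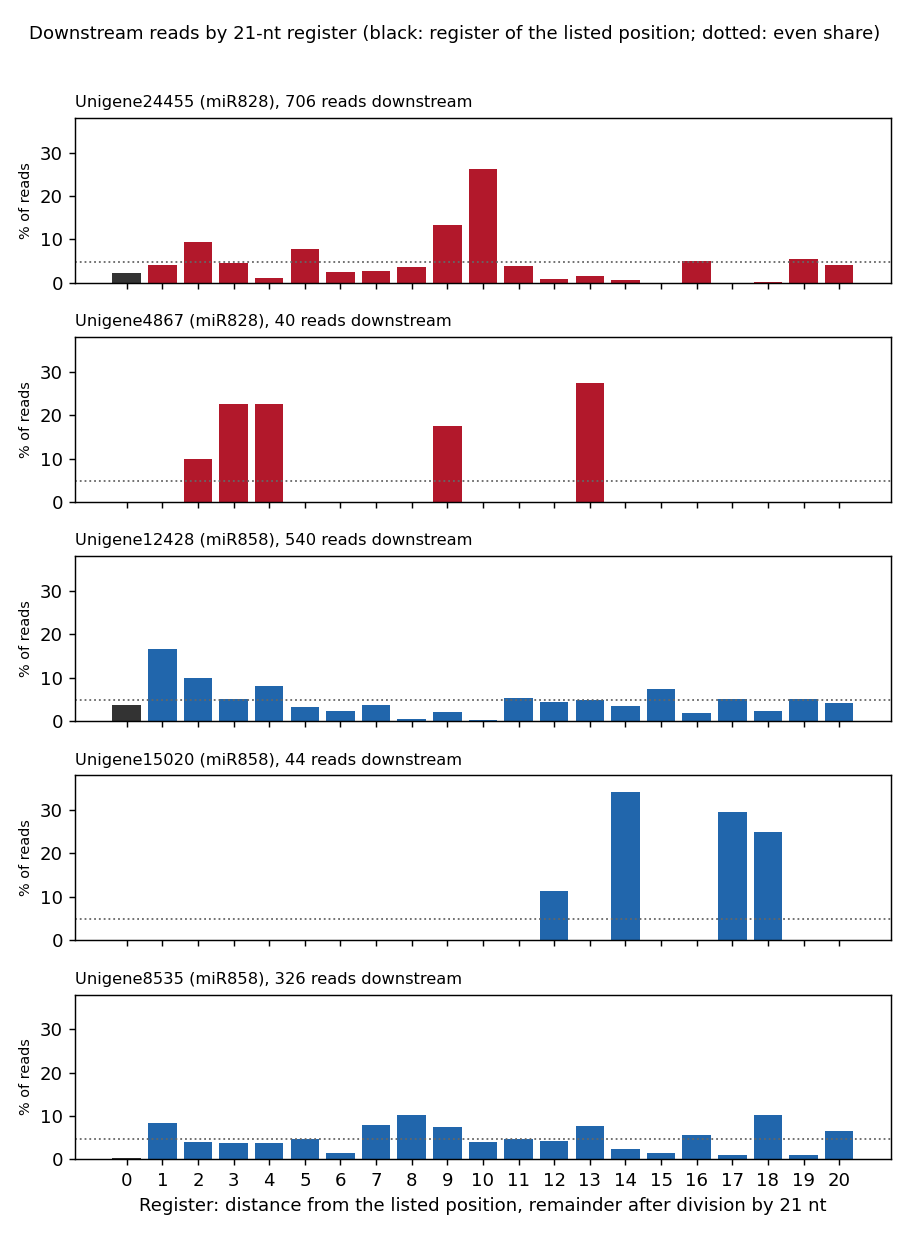
Share of downstream reads (y axis, percent) in each of the 21 registers (x axis) on the 5 target transcripts, with register 0 in black and the even share of 4.76% dotted. Register 0 stays under the dotted line on every transcript, and register 10 of Unigene24455 reaches 26.3%.

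The same measure was taken at the listed positions of other families. Over the 5 positions of miR828 and miR858, 37 of 1656 downstream reads fell in register 0 (2.23%, 1.58 to 3.07%). Over the 10 positions of miR393 and miR482, families that start phased small RNAs from auxin receptor and disease resistance transcripts in other plants, it was 306 of 6272 (4.88%, 4.36 to 5.44%). Within the first 10 spacings the order turned, with 2.88% for miR828 and miR858 and 2.68% for miR393 and miR482. The median per position was 0.307% for miR828 and miR858 and 0.568% for miR393 and miR482. No position was listed for miR390, the trigger of TAS3. Over all 64 positions outside miR828 and miR858, those of miR393 and miR482 included, it was 2522 of 62387 (4.04%, 3.89 to 4.20%). As these 64 lie on 59 transcripts, downstream reads of a transcript with more than 1 listed position were counted more than once. Reads that match more than 1 contig were also counted on each. With reads divided by their matches the share was 4.36% for miR393 and miR482 and 3.97% over the 64. It stayed at 2.23% for miR828 and miR858. These intervals treat reads as independent, although reads at 1 position are copies of 1 end, so they do not test a difference. Among the other positions with at least 100 downstream reads, 36 in number, the share ranged from 0 to 10.7% with a median of 3.33%, and the values of the miR828 and miR858 targets lay inside that range.

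Length bears on the same question, because the trigger of phased small RNAs in plants is often a miRNA of 22 nt. The single miR828 read was 21 nt long, and at 1 read the length mix of the family cannot be known. All 124 miR858 reads were listed as 21 nt. For comparison, 99.1% of the 7027 reads of miR482 and 63.6% of the 77 reads of miR393 were 22 nt long, while 95.2% of the 165 reads of miR390 were 21 nt long.

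Small RNA reads and degradome reads of the families did not run in the same order. The authors' deposited table gave 14 matched families at least 1 position of category 0. Of these, miR828 had the fewest small RNA reads and the deepest position, and no other of them had as few as 1 read. miR393 had 77 small RNA reads and 356 reads at its deepest position, on Unigene7232, while miR482 had 7027 and 277, on Unigene26060. miR159 and miR319, which target MYB and TCP genes in other plants, had 123.5 and 4754.5 small RNA reads. Their deepest positions had 81 of 124 reads on Unigene184 and 84 of 517 on CL6050.Contig2. Small RNA and degradome reads come from different libraries with different totals, so orders can be set side by side, but not amounts.

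**Figure D5:**
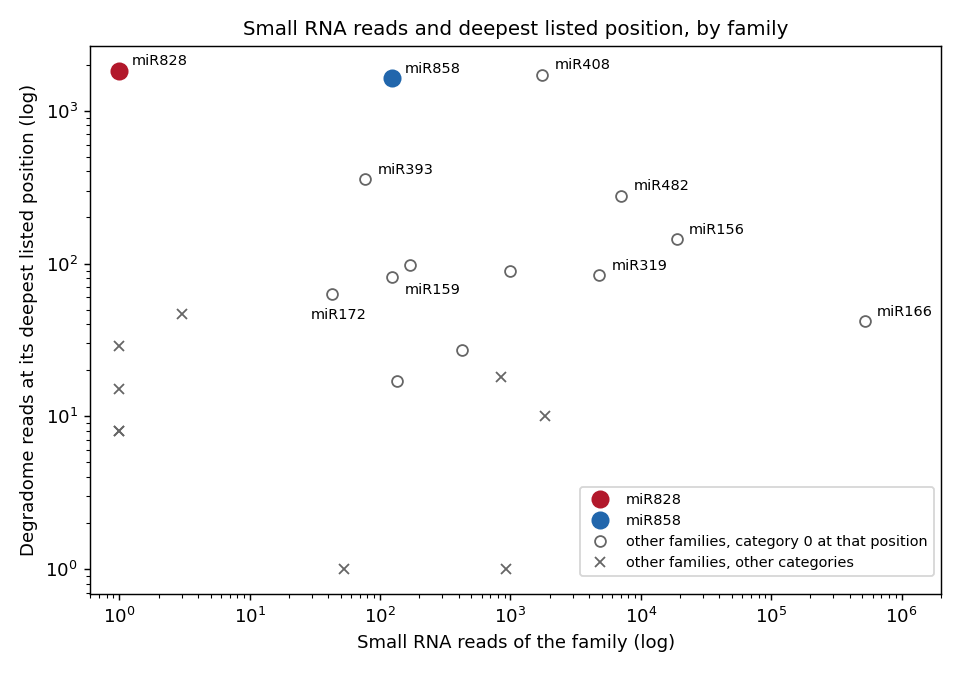
Small RNA reads of each of the 23 matched families with a listed position (x axis, log scale) against the degradome reads at its deepest listed position (y axis, log scale). miR828 in red lies at the upper left with 1 and 1819 reads, and miR858 in blue has 124 and 1631. Open circles are other families of category 0 at that position, and crosses are families of other categories.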

How the data were processed

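Per the labels, total RNA of the pooled organs gave a small RNA library (TruSeq kit) and a degradome library made from poly(A) RNA. Per the file headers, the deposited small RNA values are raw reads per listed miRNA, without normalization. Since 115 of 569 entries are not whole, the deposited values were treated as estimated counts, and how the fractions arose is not stated in the headers. They were summed over the entries of a sequence and not rounded. The degradome file deposited by the authors gives each site's alignment with its score, p-value and category, then reads by position. Its columns have no header and were read, from their values, as reads, reads divided by matches and reads that match 1 place alone. The sources used here do not name the aligner, target caller or build, or define the categories.

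Families known under paired names (such as miR482 and miR2118) were merged. Positions were counted once per transcript. Pairing was recomputed from the alignments. With 1 library of each kind no test between samples was possible, so shares have exact (Clopper-Pearson) binomial intervals and counts exact Poisson intervals, both at 95%, and a count of 0 allows up to 3 counts. Members and comparison families were chosen with earlier results of these data known. Every member was named, those with category 0 or at least 10 reads in full. Other families were named by their deepest position, and miR408 and miR160, outside that rule, after their values were seen. Python 3.11.15, NumPy 2.4.6, SciPy 1.17.1 and matplotlib 3.10.9 were used.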

Additional observations from a re-analysis of the deposited data

How the results depend on the processing

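The number of small RNA reads of both families was 125, and 124 among sequences with at least 10 reads. Each family had 1 entry, so counting entries separately could not change the 125. The 3 positions of category 0 in the authors' deposited table remained 3 in number at category 0 or 1, at a deposited p of at most 0.05 and at 10 or more reads. The same 3 positions passed each setting, so these are not separate observations. Over all 69 listed positions, 33.3% had category 0, 39.1% a deposited p of at most 0.05 and 58.0% at least 10 reads. With 5 positions, 3 under each setting does not set the families apart. The median share at the listed position was 26.7 to 29.4% with other ways of counting reads, with neighbouring bases included and with contigs merged. It was 37.1% over category 0 positions alone, where 3 positions are left. The median of the 5 was the share of Unigene4867, which had no reads 1 nt on either side. None of the 5 targets is a contig of a cluster, so merging could not change it. The share of Unigene12428 alone moved from 37.1% to 43.2% among reads that match 1 place alone. The share of downstream reads in register 0 (2.23%) was 3.87% over distinct positions, 15.4% with 1 nt on either side (even share 14.3%), 4.71% at a spacing of 24 nt (even share 4.17%) and 3.20% upstream of the listed position, where Unigene24455 alone had 10.7%. The 15.4% includes the reads next to the listed position, 73 on Unigene12428, 15 on Unigene8535 and 21 on Unigene24455. It was 2.17% at a spacing of 22 nt (even share 4.55%) and 2.69 to 2.88% within the first 10 spacings and without the deepest position. At the miR393 and miR482 positions it ran from 2.68% within the first 10 spacings to 7.06% at a spacing of 22 nt (even share 4.55%). Over all 64 positions outside miR828 and miR858 it was 3.82 to 4.55%. Both ranges leave aside the setting with 1 nt on either side and mix settings with different even shares. The causes of these shifts beyond the way each value is built were not tested. No paired analysis was possible because there is 1 library of each kind. Depth limits what can be said of the positions with 4 and 5 reads, of the 40 and 44 downstream reads of Unigene4867 and Unigene15020, and of the 1 read of miR828.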
